A study of Mus musculus with 9 samples.

Results

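Regions of the mouse embryonic stem cell (ESC) genome were examined in which CpG methylation was higher after loss of *Dnmt3b* than in wild type (WT). The genome was divided into non-overlapping 1-kb windows, and a window was measured when at least 3 of its CpGs had 10 or more reads in each of 3 genotypes. A window was selected on the measured difference itself, when its mean methylation in *Dnmt3b*-/- cells exceeded that in WT by at least 15 percentage points. Of 1241158 measured windows, 2966 gained methylation by this rule, which is 0.239% of all windows. A decrease of the same size was found in 181561 windows, or 14.6%.

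Whole genome bisulfite sequencing (WGBS) was performed on J1 ESCs of strain 129S4/SvJae that were wild type, *Dnmt3a*-/- (3aKO) or *Dnmt3b*-/- (3bKO), with 3 biological replicates per genotype and 9 libraries altogether. Cells of all genotypes were kept under the same conditions, on gelatin with serum and leukemia inhibitory factor, at similar passage numbers, and whether each KO line is a single clone is not given in the sources used here. The replicates of a genotype were merged into 1 table by the authors, so that every value is 1 pooled value, no replicate error exists, and no test between genotypes was possible. Both KOs are set against the same WT table.

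DNA methylation at CpGs is laid down by the de novo methyltransferases DNMT3A and DNMT3B and copied to the new strand at replication by DNMT1, while TET enzymes oxidize it. In ESCs the de novo enzymes also help to keep methylation in place, so that their loss is known mainly for loss of methylation. Most CpGs outside CpG islands are methylated in ESCs grown in serum, and imprinted control regions carry methylation on 1 parental allele only. Bisulfite leaves both 5-methylcytosine and 5-hydroxymethylcytosine unconverted, so that the methylation level of a CpG, taken from its unconverted reads, covers both.

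The tables shared 13 whole chromosomes and part of chromosome 4. Over their 13982255 listed CpGs the median depth was 22 reads in WT, 20 in 3aKO and 21 in 3bKO ESCs, and 84.7% to 86.8% of the CpGs had 10 or more reads. The labels were checked at the targeted genes. In 3aKO ESCs 12 consecutive CpGs of *Dnmt3a* had no read, with a mean of 31.4 reads in WT and 16.8 in 3bKO ESCs. In 3bKO ESCs 30 consecutive CpGs of *Dnmt3b* had no read, against 31.5 reads in WT and 26.4 in 3aKO ESCs. None of the 36 measured windows of *Dnmt3b* (0 of 36) gained methylation, and 1 of 100 in *Dnmt3a* did, beside 0.239% of all windows. With so few windows these counts tell nothing about either gene.

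Sequences are shown for 5 of the leading windows, as the 300 bases of each that hold the most measured CpGs, read on the plus strand of mm9, with every CG in capitals. They are shown because they differ in kind: the first lies within the imprinted gene *Nnat*, the second between genes in partly repeated sequence, the third at the start of a U1 small nuclear RNA gene, the fourth over a coding exon of *Cdh22*, and the fifth over a run of TG dinucleotides. Their coordinates, in this order, are chr2:157386001-157386300, chr11:31881632-31881931, chr3:96164001-96164300, chr2:164969001-164969300 and chr12:108542059-108542358.
Nnat: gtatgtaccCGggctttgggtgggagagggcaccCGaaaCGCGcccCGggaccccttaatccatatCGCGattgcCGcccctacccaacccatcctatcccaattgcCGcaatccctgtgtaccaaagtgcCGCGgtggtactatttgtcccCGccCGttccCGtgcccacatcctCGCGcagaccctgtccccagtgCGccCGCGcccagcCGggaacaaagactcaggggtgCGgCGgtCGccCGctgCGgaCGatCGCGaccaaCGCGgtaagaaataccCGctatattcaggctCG
Chromosome 11, between genes: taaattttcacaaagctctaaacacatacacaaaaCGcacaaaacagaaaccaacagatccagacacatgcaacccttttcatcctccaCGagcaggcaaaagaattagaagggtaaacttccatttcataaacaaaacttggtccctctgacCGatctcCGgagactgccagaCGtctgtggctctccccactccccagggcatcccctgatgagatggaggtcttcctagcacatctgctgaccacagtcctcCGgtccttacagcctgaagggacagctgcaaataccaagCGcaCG
Chromosome 3, U1: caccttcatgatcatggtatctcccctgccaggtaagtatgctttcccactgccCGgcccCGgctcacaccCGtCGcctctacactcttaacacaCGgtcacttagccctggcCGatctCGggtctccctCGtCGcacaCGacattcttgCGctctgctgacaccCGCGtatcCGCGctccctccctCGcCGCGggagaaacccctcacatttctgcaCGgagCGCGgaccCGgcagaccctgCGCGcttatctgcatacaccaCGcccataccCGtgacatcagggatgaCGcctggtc
Cdh22: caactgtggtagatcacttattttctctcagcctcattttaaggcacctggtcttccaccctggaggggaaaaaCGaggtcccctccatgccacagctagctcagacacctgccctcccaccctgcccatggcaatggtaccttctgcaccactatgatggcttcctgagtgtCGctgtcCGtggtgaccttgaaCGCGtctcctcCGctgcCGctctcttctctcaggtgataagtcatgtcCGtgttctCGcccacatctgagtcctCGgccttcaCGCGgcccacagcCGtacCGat
Chromosome 12, TG repeat: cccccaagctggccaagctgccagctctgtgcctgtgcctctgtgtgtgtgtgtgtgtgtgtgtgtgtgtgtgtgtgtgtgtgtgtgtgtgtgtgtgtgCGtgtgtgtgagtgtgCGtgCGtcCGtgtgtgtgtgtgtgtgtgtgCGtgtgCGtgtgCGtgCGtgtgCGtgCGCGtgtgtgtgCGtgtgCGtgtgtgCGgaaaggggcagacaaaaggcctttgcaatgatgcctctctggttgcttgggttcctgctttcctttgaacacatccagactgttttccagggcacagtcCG

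In the *Nnat* stretch 18 of the 32 CpGs were measured. Their mean methylation was 43.0% in WT, 14.4% in 3aKO and 88.4% in 3bKO ESCs, and all 18 were higher in 3bKO ESCs than in WT. In the stretch on chromosome 11 all 8 CpGs were measured and were higher in 3bKO ESCs, with means of 30.9% in WT, 49.6% in 3aKO and 62.03% in 3bKO ESCs. The U1 stretch held 27 measured CpGs, all upstream of the gene and none within it, of which 25 were higher in 3bKO ESCs. The *Cdh22* stretch had 7 measured CpGs of 14, all higher in 3bKO ESCs, with means of 56.5%, 36.01% and 97.9% in WT, 3aKO and 3bKO ESCs. In the TG repeat 12 of 13 measured CpGs were higher. No motif was searched for in these sequences, which are shown for their CpGs.

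The gaining windows were partly methylated in WT. Their median methylation was 74.97% in WT, with quartiles of 69.5% and 78.7%, against a median of 91.9% over all windows. In 3bKO ESCs the median was 93.5% in the gaining windows, with quartiles of 88.9% and 96.7%, and 85.3% over all windows. The gaining windows therefore ran from below the genome-wide level in WT to above it in 3bKO ESCs, which the rule itself favours. A level of 90% or more without *Dnmt3b* was reached by 2097 of them (70.7%), against 26.03% of all windows, and 15 remained under 50%. The rule favours high 3bKO levels, so that this share is a description.

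The 3aKO table was not used for the difference that selected the windows. The median level there was 56.2%, with quartiles of 45.2% and 66.0%, and the median over all windows was 56.8%. In the windows that lost 15 points or more without *Dnmt3b*, it was 46.3%. Of the gaining windows, 310 (10.5%) were higher in 3aKO ESCs than in WT, against 0.260% of all windows. This share and the rule use the same WT reads, and low WT values favour both. In 11 gaining windows (0.371%) 3aKO was above 3bKO, against 1.33% of all windows, and the rule raises the 3bKO value. A level under 10% without *Dnmt3a* was found in 47 gaining windows (1.58%) and in 2.95% of all windows. These shares are not matched on WT level. In WT, 16902 of all windows but only 10 gaining windows were already under 20%.

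**Figure D1:**
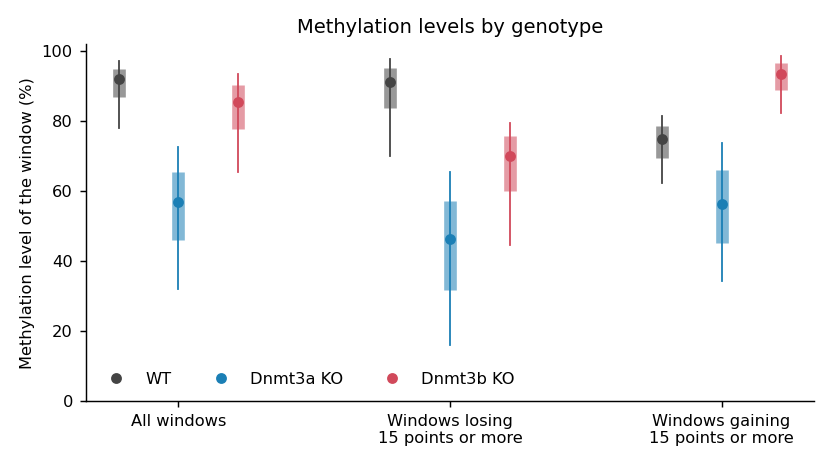
Methylation level of 1-kb windows (%) in WT, 3aKO and 3bKO ESCs for all 1241158 windows, the 181561 losing windows and the 2966 gaining windows. Points are medians over windows, thick bars run between the quartiles and thin lines from the 10th to the 90th percentile; the gaining windows had a WT median of 74.97% and a 3aKO median of 56.2%, and the spread is between windows, not replicates.

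The gaining windows were also set beside other windows of a like WT level. At a WT level of 60% to 85%, which held 2729 of the gaining windows (92.0%), 1.39% of windows gained. There the 3aKO median was 57.3% in gaining windows and 45.7% in the rest, and the WT medians were 75.6% and 80.0%. At 40% to 60% in WT, 204 of 19850 windows gained (1.03%), with a 3aKO median of 39.1% against 16.9% in the rest. At 20% to 40% only 22 of 10426 windows gained, and the medians were 21.6% and 6.20%. Windows under 20% in WT held 10 gaining windows of 16902. The 997359 windows of 85% or more in WT could not meet the rule, except at exactly 85%, where 1 window reached 100%. The gap in 3aKO medians was smaller among windows with 3 to 4 CpGs. There the medians were 56.99% in gaining windows against 47.4% in the rest at 60% to 85% in WT, and 41.5% against 28.1% at 40% to 60%. At 20% to 40% they were 23.2% against 10.8% with 3 to 4 CpGs, and 7.54% against 5.76% with 5 to 9 CpGs, where only 5 windows gained. In each of these comparisons the gaining windows had the higher 3aKO median. The levels without *Dnmt3a* and the rule share no reads, but the WT class itself is set by reads that the rule used. Within a class the rule also takes high 3bKO levels, and the rest includes the losing windows. At 60% to 85% in WT the 3bKO medians were 94.0% in gaining windows and 72.7% in the rest. The part of this selection in the higher 3aKO medians was not tested.

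The gain was modest in most windows. Its median was 17.4 points and its largest value 40.5 points. Of the gaining windows, 2218 (74.8%) gained 15 to under 20 points, 748 gained 20 or more, 190 gained 25 or more and 50 gained 30 or more. The threshold cut through a continuous distribution, with 742 windows at 15 to under 16 points and 973 windows just outside it at 14 to under 15 points. The windows nearest to it differed by 15 points inside and 14.998 points outside.

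Gaining windows were concentrated among windows with few measured CpGs. Windows with 3 to 4 measured CpGs gained in 2416 of 353133 cases (0.684%), windows with 5 to 9 in 525 of 548297 (0.0958%) and windows with 10 or more in 25 of 339728 (0.00736%). Windows with 3 to 4 CpGs made up 81.5% of the gaining windows. Losses also became rarer with more CpGs, but only from 22.1% through 12.7% to 9.995%. Gains thus fell off with CpG number far more steeply than losses.

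The reads behind a window follow from the same number. A gaining window with 3 to 4 CpGs rested on a median of 67 reads in WT and 65 in 3bKO ESCs, and the 95% interval of its difference in read share had a median half-width of 12.3 points. With 10 or more CpGs the medians were 242 and 261 reads and the half-width was 6.36 points. These intervals cover counting error in the merged reads only, and do not account for the selection of the windows. The interval lay above 0 in 2596 of the 2966 gaining windows (87.5%), and wholly above 15 points in 86 (2.90%). Among the windows with 10 or more CpGs it lay above 0 in 24 of 25 and above 15 points in 4. The depth per CpG was also lower in the gaining windows, with medians of 20.7 reads in WT and 20.2 in 3bKO ESCs against 25.3 and 24.1 over all windows. The part of CpG number and depth in the gains was not tested.

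**Figure D2:**
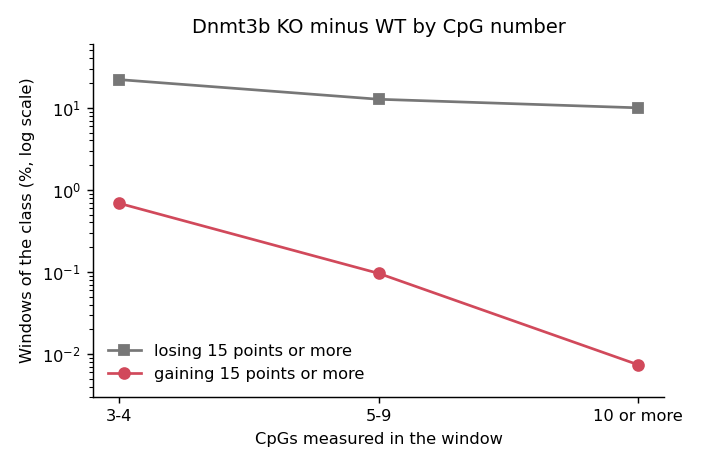
Share of windows (%, log axis) that gained or lost 15 points or more without *Dnmt3b*, by the number of CpGs measured in the window. Gains fell from 0.684% of windows with 3 to 4 CpGs to 0.00736% of windows with 10 or more, and losses from 22.1% to 9.995%. The median difference over all windows was -6.16 points, nearer to the limit for losses.

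Within the gaining windows most CpGs were higher in 3bKO ESCs, as the selection on their mean favours. Of 11298 CpGs, 9327 (82.6%) were higher in 3bKO ESCs than in WT, and in 1379 windows (46.5%) every CpG was higher. In most, but not all, gaining windows with enough reads on each strand, both strands were higher. Of 2334 gaining windows with 10 or more reads per strand in both tables, 1726 (74.0%) were higher on each strand, with median differences of 16.1 points on the plus and 16.5 points on the minus strand. These counts use the reads that selected the windows and are given as a description.

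CpGs of the gaining windows that the rule had not used were lower, not higher, in 3bKO ESCs. These were CpGs with fewer than 10 reads in at least 1 table but 3 or more in each, at more than 300 bases from every CpG that had entered a mean. There were 741 of them, in 463 gaining windows. Their mean methylation was 82.3% in WT, 50.7% in 3aKO and 75.8% in 3bKO ESCs, a 3bKO minus WT difference of -6.53 points. Over the 122366 such CpGs of all windows the difference was -6.60 points, and in the losing windows it was -8.65 points. As a share of reads, the difference in the gaining windows was -6.65 points, with a 95% interval of -7.86 to -5.43 points. These 741 CpGs therefore differed from WT by about as much as unused CpGs did genome-wide, in the direction opposite to the CpGs that selected the windows.

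The windows around the gaining windows were, at the median, close to all windows. In the 4179 measured windows next to a gaining window, the median 3bKO minus WT difference was -6.30 points, and from 2 to 10 kb away the medians lay between -6.23 and -5.86 points. The median over all windows was -6.16 points. Of the windows next to a gaining window, 18 (0.431%) themselves gained, against 0.239% of all windows, and at 2 to 10 kb the share was between 0.145% and 0.530%. Those 18 formed 9 pairs, and no run was longer than 2 windows, while 2948 gaining windows stood alone. Around the 25 gaining windows with 10 or more CpGs, the 47 neighbours had a median of -2.58 points.

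**Figure D3:**
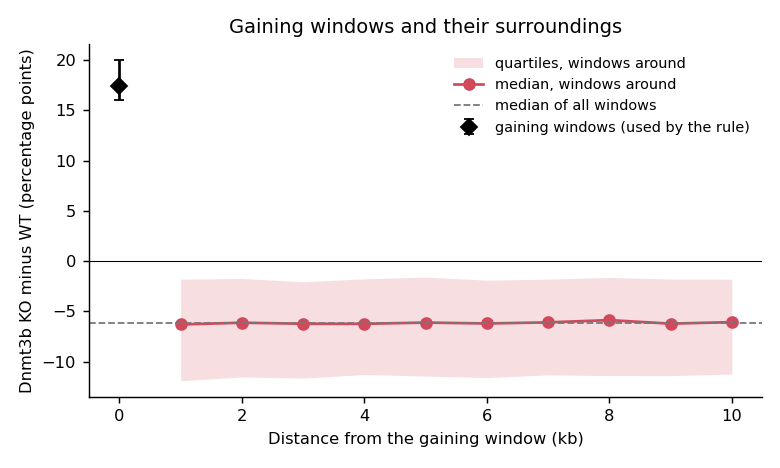
3bKO minus WT difference (percentage points) against the distance from a gaining window (kb). The black diamond is the median of the gaining windows with quartiles, used by the rule; red points and the band are the median and quartiles of measured windows 1 to 10 kb away, all medians within -6.30 to -5.86, beside the median of all windows (-6.16, dashed).

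By annotation, most gaining windows lay between genes. They did so in 67.2% of cases, against 55.7% of all windows, while 28.3% lay in introns and 4.59% touched an exon (32.5% and 11.8% of all windows). Start sites of protein-coding genes were within 1 kb of 2.26% of the gaining windows and of 5.39% of all windows. CpG islands overlapped 5 gaining windows (0.169%), against 1.02% of all windows. These contrasts varied with CpG number. Among windows with 3 to 4 CpGs, 67.8% of the gaining and 65.9% of all windows lay between genes, 2.15% and 2.20% lay near a start site, and 0.124% and 0.0631% overlapped a CpG island. With 5 to 9 CpGs, there were 64.8% of the gaining and 56.04% of all windows between genes, 5.14% and 9.28% touching an exon, and 2.29% and 3.82% near a start site, while 0.190% and 0.134% overlapped a CpG island. With 10 or more CpGs, 13 of the 25 gaining windows (52%) and 44.6% of all windows lay between genes, 3 (12%) and 11.3% lay near a start site, and 1 (4%) and 3.43% overlapped a CpG island. The lower pooled share at CpG islands was thus not found within any class of CpG number, each of which held 1 to 3 such gaining windows. No chromosome stood far apart, with gaining shares from 0.175% of windows on chromosome 11 to 0.277% on chromosome 14.

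Repeated sequence was somewhat more frequent in the gaining windows. As a measure, the share of 32-base words of a window that occur more than once in the mm9 reference was counted on both strands. At least 50% of the words were repeated in 371 gaining windows (12.5%), against 9.22% of 12412 windows taken at every 100th position of the list. Within the class of 3 to 4 CpGs the shares were 12.9% and 10.7%. The remaining 2595 gaining windows had a WT median of 75.4% and a 3bKO median of 93.9%, and the 371 repeated ones had 71.3% and 89.6%. Reads from near-identical copies may be counted at 1 copy, so that levels in such windows are uncertain.

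The largest gain among well-covered windows was at *Nnat*. *Nnat* encodes neuronatin, a small membrane protein of developing brain, and is an imprinted gene that is expressed from the paternal allele. The gene (ENSMUSG00000067786.9, chr2:157385814-157388258, plus strand) lies within an intron of *Blcap*, which is read from the opposite strand (chr2:157382098-157397010). The leading window, chr2:157386001-157387000, overlaps a CpG island and holds introns, coding exons and an annotated transcript start of *Nnat*. Of its 49 CpGs 30 were measured.

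In this *Nnat* window mean methylation was 50.2% in WT, 19.8% in 3aKO and 90.6% in 3bKO ESCs. Single CpGs ranged from 9.09% to 82.4% in WT, from 0% to 46.7% in 3aKO and from 71.4% to 100% in 3bKO ESCs, and all 30 were higher without *Dnmt3b*. By read shares, 49.7% of 644 reads were methylated in WT (95% Wilson interval 45.8% to 53.5%). In 3aKO ESCs the share was 19.7% of 578 reads (16.7% to 23.2%) and in 3bKO ESCs 90.4% of 741 reads (88.1% to 92.3%). The difference from WT without *Dnmt3b* was 40.7 points (36.2 to 45.0). The WT and 3bKO reads are those that selected the window, so that their separation is a description. Both strands rose, from 50.4% to 89.2% on the plus and from 49.3% to 91.3% on the minus strand.

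*Nnat* also gave the first of the 9 pairs of adjacent gaining windows, with 48 measured CpGs, while the other pairs held 6 to 11. The next window downstream had means of 66.5% in WT, 38.4% in 3aKO and 86.0% in 3bKO ESCs over 18 CpGs, a gain of 19.5 points. The window upstream, which holds the first annotated start of the gene, had 78.6%, 50.4% and 93.2% over 31 CpGs and, with 14.5 points, just missed the rule. From 2 to 4 kb away on either side the differences were between -5.66 and 3.31 points. An unmethylated stretch 5 kb downstream stayed unmethylated, at 2.99% in WT, 0.238% in 3aKO and 2.00% in 3bKO ESCs. The increase was thus found over the gene and just before it, between methylated flanks that differed little.

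**Figure D4:**
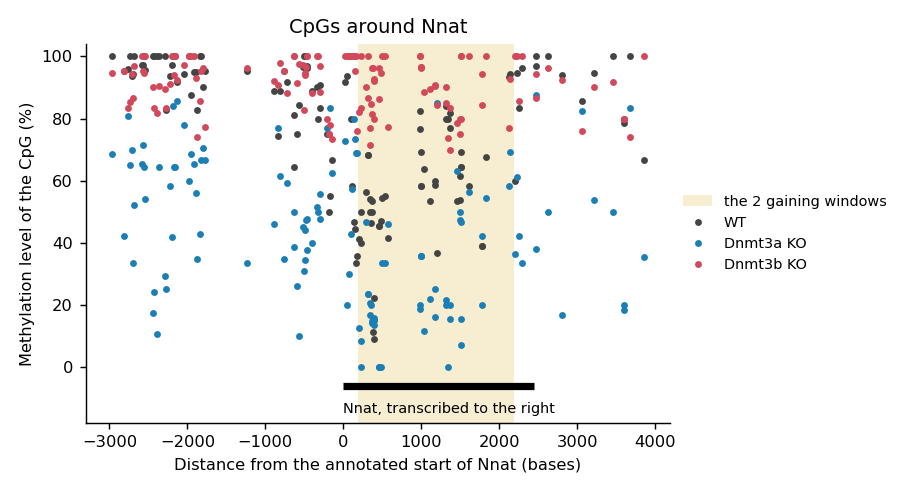
Methylation level (%) of each CpG with 10 or more reads in every genotype, against its distance in bases from the annotated start of *Nnat*. The shaded 2 gaining windows show WT points mostly at intermediate levels, 3aKO points mostly below them and 3bKO points at 70% or more. Away from the gene most WT and 3bKO points lie close together.

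Of the other 8 pairs of adjacent gaining windows, the first by size lay in *Plxna2*, a receptor of semaphorins in axon guidance. Its pair at chr1:196630001-196632000 held 9 CpGs, with means of 63.7% in WT, 51.1% in 3aKO and 87.0% in 3bKO ESCs. The next pairs rested on 6 or 7 CpGs each. A pair on chromosome 1, 188 kb from the start of *Hsfy2*, gained 19.3 points, a pair in an intron of *Calcrl*, the receptor of calcitonin gene-related peptide and adrenomedullin, gained 18.9 points, and a pair on chromosome 16, 547 kb from the start of *Nsun3*, gained 18.9 points. In all 4 pairs the 3aKO mean was the lowest of the genotypes, at 51.1% to 61.9%. Within the pairs the gain was uneven. In the second *Calcrl* window 1 of 3 CpGs was higher in 3bKO ESCs. In the first window on chromosome 16 it was 2 of 4, with a read-share difference of 9.55 points (-0.892 to 19.6) that includes 0. In the second window there, 3aKO (70.6%) was above WT (65.0%). In the *Plxna2* and *Hsfy2* pairs most or all CpGs of each window were higher.

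Beside *Nnat*, the leading windows with at least 200 reads in every table were of several kinds. At chr11:31881001-31882000, between genes and 15.4 kb from a start site of *4930524B15Rik*, methylation over 14 CpGs was 34.9% in WT, 42.3% in 3aKO and 66.0% in 3bKO ESCs. The difference in read share was 32.8 points (26.3 to 38.9) and 13 of 14 CpGs were higher. The 3aKO mean was also above WT here, but the read shares of 33.7% in WT (29.3% to 38.3%) and 40.2% in 3aKO ESCs (35.8% to 44.7%) had overlapping intervals. In this window 59.03% of the 32-base words are repeated in the genome.

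The window at chr3:96164001-96165000 covers the start of a U1 gene (ENSMUSG00000065308.1), a member of the multicopy family of small nuclear RNAs that recognize 5′ splice sites. Over 27 CpGs its methylation was 35.8% in WT, 41.2% in 3aKO and 58.2% in 3bKO ESCs, from 849, 550 and 973 reads. Here 77.7% of the words are repeated, and single CpGs ranged from 0% to 57.1% in WT and from 0% to 85% in 3bKO ESCs. Its level may therefore mix several copies of this sequence. The 27 CpGs all lay upstream of the gene, whose start is at base 96164040 on the minus strand. The window 1 kb upstream on the map differed by 1.24 points and the one downstream by 0.981 points.

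The gain in the *Cdh22* window depended on how its CpGs were weighted. *Cdh22* encodes a cadherin, a cell adhesion protein. At chr2:164969001-164970000 the mean over 11 CpGs was 69.9% in WT, 49.1% in 3aKO and 91.2% in 3bKO ESCs, a gain of 21.3 points. As a share of reads, however, it was 82.0% in WT and 87.5% in 3bKO ESCs, a difference of 5.51 points with an interval of -0.919 to 11.8 points that includes 0. Of the 11 CpGs 7 were higher, which are those of the exon stretch shown above, and the windows 2 and 3 kb upstream on the map fell by 22.6 and 19.4 points.

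The remaining windows described here gained 15.5 to 17.8 points. In the TG repeat on chromosome 12, 184 kb from the nearest start of a protein-coding gene, methylation was 51.7% in WT, 26.4% in 3aKO and 69.5% in 3bKO ESCs. A coding exon of *Sema5b*, a guidance molecule of axons, had 50.4%, 31.6% and 67.8%, and an intron of *Nrg3*, a ligand of the receptor ERBB4, had 59.3%, 57.0% and 76.5%. Windows between genes on chromosomes 17, 15 and 1, and 1 in the noncoding gene *A930031H19Rik* on chromosome 4, had WT levels of 70.4% to 78.7% and 3bKO levels of 86.3% to 94.2%. The window on chromosome 1 held 27 CpGs, of which 21 were higher. In the TG repeat the plus strand rose from 42.5% in WT to 61.4% in 3bKO ESCs, while the minus strand had 97.7% and 97.3%. In the *Nrg3* window the plus strand rose from 51.6% to 76.1% and the minus strand fell from 96% to 84.6%. On chromosome 1 the plus strand had 96% and 97.2%, and the minus strand rose from 65.5% to 81.4%. In the TG repeat, the *Nrg3* window and the chromosome 1 window, the strands thus differed widely already in WT. Levels over both strands are therefore uncertain there, and the cause was not tested. The other windows of this paragraph were higher on both strands. In 3 of the 25 gaining windows with 10 or more CpGs, 3aKO ESCs had a higher mean than WT, beside 0.260% of all windows of any CpG number. This count and the rule use the same WT reads, and low WT values favour both.

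**Figure D5:**
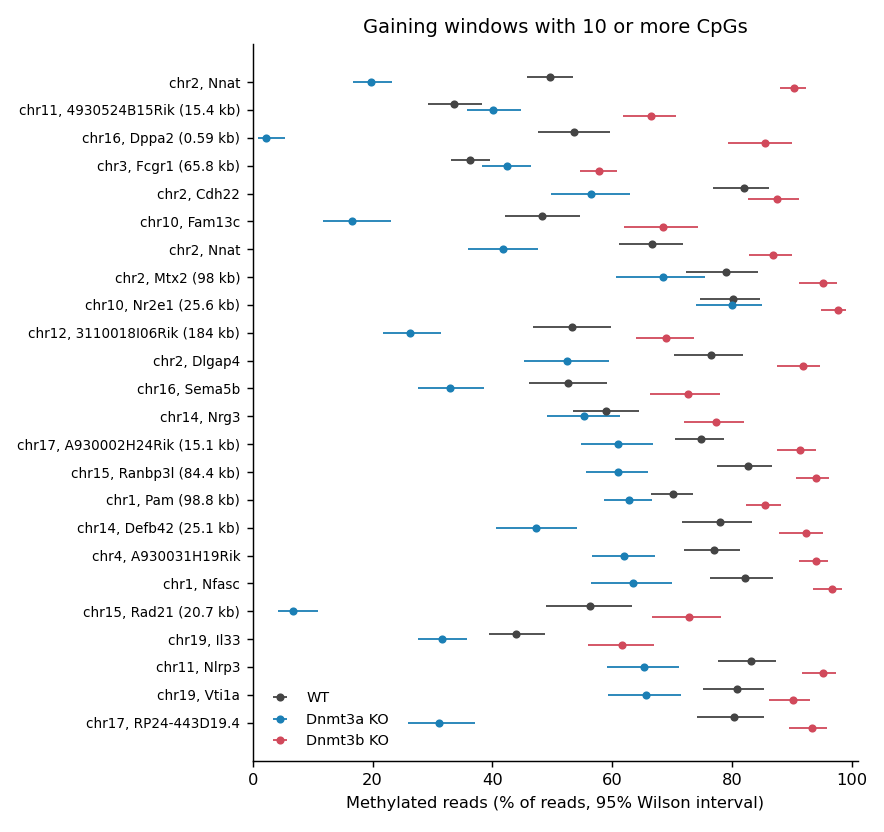
Methylated reads (% of reads over the measured CpGs) with 95% Wilson intervals in WT, 3aKO and 3bKO ESCs for 24 of the 25 gaining windows with 10 or more CpGs, from the largest gain of the mean at the top. Rows are named by chromosome and gene, or by the nearest start of a protein-coding gene with its distance in kb, and *Nnat* has 2 windows; the *Cdh22* intervals of WT and 3bKO overlap.

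The lowest 3aKO level among these 25 windows was found upstream of *Dppa2*, a chromatin factor of pluripotent cells. The window chr16:48309001-48310000 ends 0.59 kb before the start of the gene. Over 10 CpGs its mean methylation was 60.1% in WT, 1.98% in 3aKO and 84.5% in 3bKO ESCs. The read shares were 53.6% of 261 reads (47.6% to 59.6%), 2.13% of 188 reads (0.830% to 5.34%) and 85.5% of 166 reads (79.4% to 90.1%). The WT and 3bKO reads selected this window too. Of the 10 CpGs 7 were higher in 3bKO ESCs, and 23.5% of the window's words are repeated.

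Of protein-coding genes with a measured window over the gene or up to 5 kb upstream, 882 of 14255 (6.19%) had at least 1 gaining window. Of 57 listed imprinted genes, only 30 were annotated on the chromosomes shared by the tables, and the others were not examined. Among these 30 it was 4 (13.3%), which were *Nnat*, *Blcap*, *Commd1* and *Cobl*. Long genes have more windows, and per window the share was 0.387% (8 of 2067) for the imprinted genes and 0.175% for all protein-coding genes, with the windows that *Nnat* and *Blcap* share counted for each. *Nnat* and *Blcap* overlap and share their 2 leading windows, so that they are not separate cases. *Blcap* also had a window upstream of its start, over 6 CpGs, at 82.8% in WT, 44.6% in 3aKO and 97.9% in 3bKO ESCs. The gains in *Commd1* (16.5 and 19.4 points) and *Cobl* (15.98 points) rested on 3 or 4 CpGs per window.

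In the other groups of genes described here the share was between 0% and 7.69%, beside 6.19% of all protein-coding genes. Only measured genes were counted. These were 26 of 48 listed germline, 23 of 41 pluripotency and 26 of 39 methylation genes, and all 24 protocadherins. Per window it was 0.183% for germline, 0.141% for pluripotency and 0.170% for methylation genes and 0% for protocadherins, beside 0.175% for all, so that none of these lists stood clearly above the background. Of the germline genes, which are often silenced by promoter methylation in somatic cells, 2 of 26 had a gaining window. In *Tex14*, needed for the bridges between germ cells, it gained 22.5 points from 66.9%, over 4 CpGs. In *Ddx4*, an RNA helicase of germ cells, it lay over the start and went from 6.06% in WT to 21.9%, the lowest levels of all gaining windows, over 3 CpGs. Of the pluripotency genes 1 of 23 had one, *Dppa2*. Of the writers, erasers and related regulators of DNA methylation 2 of 26 had one. These were *Smchd1*, a structural protein of the inactive X chromosome (16.3 points), and *Dnmt3a* itself, with 77.5% in WT, 51.3% in 3aKO and 95.3% in 3bKO ESCs over 4 CpGs. Of the clustered protocadherins 0 of 24 had one. Among the measured genes, gaining windows with 10 or more CpGs were found at 1 locus of the imprinted genes, shared by *Nnat* and *Blcap*, and at *Dppa2*. The other lists described here had none.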

How the data were processed

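WGBS was performed by the authors on WT, *Dnmt3a*-/- (3aKO) and *Dnmt3b*-/- (3bKO) ESCs. The authors aligned paired-end reads to mm9 with BSMAP, used BSeQC to remove end-repair bases, clonal reads and doubly covered parts of mates, and called CpGs with MOABS, whose versions are not given in the sources used here. The deposited read counts per CpG (all reads and methylated reads, in total and by strand) are not normalized, and the deposited methylation ratio is their fraction, from 0 to 1, rounded by the authors; it was recomputed from the counts. The 3 libraries of each genotype were merged by the authors into 1 table.

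WT data stop with an incomplete line, which was dropped, at position 140865857 of chromosome 4. What lies beyond it there, and the whole of chromosomes 5 to 9, X and Y, is not analysed here. Of 13982255 positions in the shared part, 0 were not a CG of the NCBIM37 (mm9) reference. Windows, means and intervals were computed with Python 3.11.15, NumPy 2.4.6, SciPy 1.17.1, pandas 2.3.3 and numba 0.67.0. The window code was tested on simulated gains, larger and in windows with more CpGs than most gaining windows here. That simulation does not cover smaller gains in windows with few CpGs. A window level is the mean of the ratios of its CpGs, each with at least 10 reads in all genotypes. Intervals are 95% Wilson intervals for shares and Newcombe intervals for differences, and cover counting error only. With 1 merged table per genotype no test was made.

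Genes came from GENCODE vM1. CpG islands were runs of the reference found by a score of 17 per CG, with at least 500 bases, 55% GC and an observed over expected ratio of 0.65. The windows and gene lists were chosen with earlier results of these data known, and gene lists were counted, not tested. Named are genes at the 5 largest runs of adjacent gaining windows, the 12 largest gains among windows with at least 10 CpGs and 200 reads in every table, with at most 1 window from each run, listed genes whose gaining window holds at least 10 CpGs, and *Dnmt3a* and *Dnmt3b*. Other listed genes and windows with 10 or more CpGs were named after their values had been seen. The comparison with unused CpGs and the count of repeated words were also added then. One of these windows and 1 gene list are not reported here. Alternatives varied the minimum of reads and CpGs, the threshold, the weighting, the window offset, the depth and the island definition.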

Additional observations from a re-analysis of the deposited data

How the results depend on the processing

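No paired analysis was possible because each genotype is 1 merged table, and for the same reason no replicate could be left out in turn. The share of windows that gained (0.239%) was 0.199% with at least 20 reads per CpG, 0.0619% with at least 5 CpGs, 0.00736% with at least 10 CpGs and 0.0153% with a gain of at least 25 points. It was 0.274% with read shares in place of means, and 0.316% when the reads of every CpG were thinned to the lowest of the 3 tables. The 3aKO median of the gaining windows (56.2%) was 57.2% with at least 20 reads, 57.2% with at least 5 CpGs, 49.1% with at least 10 CpGs and 53.3% with read shares, and it was 56.0% without the windows of repeated sequence, an alternative chosen after seeing the data. The share of gaining windows at CpG islands (0.169%) was 4% with at least 10 CpGs, 0.526% with a gain of at least 25 points and 0.0677% with windows moved by 500 bases, which is 1 or 2 windows in each case. It was 0.344% with at least 20 reads, 0.364% with at least 5 CpGs and 0.303% with looser islands, from 2 to 9 windows. The median 3bKO minus WT difference 2 to 5 kb away (-6.19 points) was -5.60 with at least 20 reads, -5.80 with at least 5 CpGs and -4.96 with at least 10 CpGs, and stayed below 0 under every alternative run. The cause of these shifts was not tested. Windows with 3 to 4 CpGs, which are most of the gaining windows, rested on fewer reads than the others.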
